A study of Mus musculus with 6 samples.

Results

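The regions described here are the CpG-rich megabase domains of the mouse autosomes. Each of the 19 autosomes was divided into whole 1 Mb tiles, leaving out the start of each chromosome, the CpG sites of the deposited table were counted in each tile, and the tenth of tiles with most sites was taken. This gave 239 of 2387 tiles. They held between 12174 and 20479 CpG sites each, with a median of 13417. The tiles were ranked into deciles by this number, and the 478 tiles of deciles 5 and 6, called the middle tiles here, held between 6938 and 8788 sites, with a median of 7803.5. The choice used positions only and no methylation value. The last tile inside the CpG-rich decile, chr7:51000001-52000000, held 12174 sites, and the first outside it, chr4:106000001-107000000, held 12170. Their levels in the SETD2 knockout, DNMT3B1 and DNMT3A2 lines were 6.04%, 2.55% and 7.09% for the tile inside, and 6.93%, 3.24% and 9.47% for the tile outside. Positions are those of genome build mm9.

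CpG methylation was read by bisulfite sequencing of the whole genome, in which an unmethylated cytosine is read as T and a methylated one stays C. All 3 lines were mouse embryonic stem cells that lacked endogenous DNMT1, DNMT3A and DNMT3B and were kept in serum and LIF on feeder cells or gelatine. The first expressed DNMT3B1 and also lacked SETD2, the second expressed DNMT3B1, and the third expressed DNMT3A2. The labels gave 2 sequencing runs per line, pooled into 1 set of values for the DNMT3B1 and DNMT3A2 lines. The knockout runs had identical files, counted as 1 sample. The labels do not say how the enzymes were driven or whether a line was 1 clone, and enzyme amounts were not measured, so a level describes a line. With 1 library per line there is no replicate error and no p-value is given. The spread between tiles and between autosomes is given in its place, and it is not a replicate error.

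DNMT3A and DNMT3B set methylation de novo, and DNMT1 copies it onto new strands after replication. DNMT3A2 and DNMT3B1 are isoforms found in embryonic stem cells. SETD2 trimethylates lysine 36 of histone H3 along transcribed genes, a mark that the PWWP domain of DNMT3B binds. Mammalian genomes are a mosaic of long stretches of similar base composition, called isochores, and the CpG-rich ones are known to be rich in genes and in CpG islands, the short CpG-dense stretches that cover many promoters and are usually unmethylated.

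Most promoters placed in the CpG-rich tiles carried little methylation and a minority carried more. The following 3 promoter windows show these extremes. They cover 250 bases before to 50 bases after a transcription start, were copied from RefSeq (GRCm38.p6), and were placed on mm9 by matching the spacing of their CpGs to the table. Capitals mark the CpGs, 7, 6 and 39 of them. They were chosen after their values were seen, among protein-coding genes with every CpG of the window usable: the highest pair by DNMT3A2 level, and the window with most CpGs and no methylated read in any line.
Fam209, chr2:172297804-172298103, plus strand: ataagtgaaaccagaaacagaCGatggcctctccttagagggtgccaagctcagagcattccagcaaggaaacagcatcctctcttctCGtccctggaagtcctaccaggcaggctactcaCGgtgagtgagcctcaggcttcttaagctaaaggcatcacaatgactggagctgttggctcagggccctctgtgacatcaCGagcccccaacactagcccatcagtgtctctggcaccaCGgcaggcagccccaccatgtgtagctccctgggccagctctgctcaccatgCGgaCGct
Lmnb2, chr10:80369108-80369407, minus strand: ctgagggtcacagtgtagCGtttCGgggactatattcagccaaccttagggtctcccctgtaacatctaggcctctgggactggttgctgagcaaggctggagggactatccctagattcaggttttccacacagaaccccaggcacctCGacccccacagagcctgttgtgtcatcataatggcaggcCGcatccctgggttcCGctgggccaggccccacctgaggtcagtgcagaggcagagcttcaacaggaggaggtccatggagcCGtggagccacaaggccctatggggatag
Srsf2, chr11:116714359-116714658, minus strand: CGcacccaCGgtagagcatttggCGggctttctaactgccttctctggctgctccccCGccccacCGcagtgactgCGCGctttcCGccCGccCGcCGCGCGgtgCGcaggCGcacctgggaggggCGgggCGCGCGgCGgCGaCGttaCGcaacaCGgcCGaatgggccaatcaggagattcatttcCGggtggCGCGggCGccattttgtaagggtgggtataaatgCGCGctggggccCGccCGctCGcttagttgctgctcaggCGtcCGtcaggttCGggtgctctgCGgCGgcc

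In the Fam209 window, 15 of 99 CpG reads were methylated in the SETD2 knockout line, 11 of 141 in the DNMT3B1 line and 32 of 146 in the DNMT3A2 line, or 15.2%, 7.80% and 21.9%. The second CpG from the 5′ end was the most methylated in all 3 lines, with 9 of 14, 8 of 24 and 9 of 21 reads in the same order. The Lmnb2 window, at a start site of the lamin B2 gene, which encodes a protein of the nuclear lamina, had 10 of 145, 3 of 81 and 10 of 51 methylated reads. The window of Srsf2, a splicing factor gene, had 0 of 1232, 0 of 1032 and 0 of 470, with exact 95% upper limits of 0.299%, 0.357% and 0.782%. A minority of windows reached 5%, a level below that of the Fam209 window in every line. Of 4250 promoter windows in CpG-rich tiles with at least 4 usable CpGs, 297 (6.99%) reached a level of 5% in the SETD2 knockout, 104 (2.45%) with DNMT3B1 and 336 (7.91%) with DNMT3A2. In the middle tiles the shares were 6.45%, 1.97% and 6.89% of 1830 windows. Pooled, promoter windows were methylated at 0.715%, 0.255% and 0.593% in CpG-rich tiles, against 0.709%, 0.266% and 0.587% in the middle tiles, in the same order of lines. The 95% binomial intervals of the 2 kinds of tile overlapped in each line. These levels include cytosines that failed to convert, a share that was not measured. The pooled level of the densest usable autosomal sites, taken as background in an alternative described further on, was 0.463%, 0.153% and 0.210% in the same order. Whether promoter levels differed between lines or kinds of tile apart from failed conversion was not tested.

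To compare megabases without comparing CpG islands with open sequence, the main measure used only sites with 10 to 19 CpGs per kb, counted within 500 bp on each side, the site itself included. Sites needed at least 5 reads in all 3 lines and at most 80, 40 and 45 reads in the SETD2 knockout, DNMT3B1 and DNMT3A2 lines. This kept 869955 of 1596000 sites of that density (54.5%) in CpG-rich tiles and 465104 of 1348921 (34.5%) in the middle tiles. Mean coverage was 20.1, 13.4 and 13.9 reads in CpG-rich tiles, and 17.9, 12.0 and 12.4 in the middle tiles. The SETD2 knockout values list only sites with at least 10 reads, which raises that line's coverage. The CpG-rich tiles were thus the more deeply covered in every line.

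Within this range of site density the CpG-rich megabases differed little from the middle tiles, and in different directions between lines. In the SETD2 knockout line 6.75% of reads were methylated in CpG-rich tiles (exact 95% binomial interval 6.74% to 6.76%) and 7.04% in the middle tiles (7.02% to 7.05%). In the DNMT3B1 line the levels were 3.26% (3.25% to 3.27%) and 3.32% (3.30% to 3.33%). In the DNMT3A2 line they were 9.09% (9.07% to 9.10%) and 8.93% (8.91% to 8.95%). The intervals cover counting error only, since duplicate reads cannot be recognised and neighbouring CpGs share reads. The ratios of CpG-rich to middle levels were 0.960, 0.984 and 1.02. With the number of CpG sites within 5 kb on each side made equal they were 0.979, 0.984 and 1.00, so the DNMT3A2 difference nearly vanished. Set against all other tiles in place of the middle ones, DNMT3A2 was lower in CpG-rich tiles (log2 -0.021), as were the other lines. With the gene content of the tiles made equal, an alternative added after the data were seen, all 3 lines were higher in CpG-rich tiles (log2 0.11, 0.065 and 0.24), as described further on. That alternative used fewer CpG-rich tiles: it left out chromosome 18 and the 37 tiles with 25 or more genes, which no middle tile matched. With no coverage maximum the DNMT3B1 difference also changed sign, to 0.083 on the log2 scale. That change came with 9 sites of extreme coverage in chr9:35000001-36000000, which held 97.5% of the DNMT3B1 reads above the maximum in the middle tiles.

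Single tiles of the 2 kinds overlapped widely. Tile levels had an SD of 0.636, 0.375 and 1.21 percentage points in the 239 CpG-rich tiles, and of 0.701, 0.440 and 1.12 in the 432 middle tiles with at least 500 usable sites, in the order SETD2 knockout, DNMT3B1 and DNMT3A2. CpG-rich tiles ran between 5.27% and 8.89% in the SETD2 knockout line, between 2.43% and 5.04% in the DNMT3B1 line and between 6.17% and 12.7% in the DNMT3A2 line. Nearly all lay inside the range of the middle tiles: all 239 in the SETD2 knockout line, and 238 in each of the other lines. Above the median of the middle tiles lay 75 CpG-rich tiles (31.4%) in the SETD2 knockout, 112 (46.9%) with DNMT3B1 and 131 (54.8%) with DNMT3A2.

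Few CpG-rich tiles stood apart by a fixed fold. At least 20% below the pooled level of the middle tiles lay 10 CpG-rich tiles (4.18%) in the SETD2 knockout line, against 3.04% of all 1479 tiles tested. At least 25% above it, the same fold, lay 1 tile (0.418%), against 0.406% of all. In the DNMT3B1 line 9 (3.77%) were lower, against 4.12% of all, and 4 (1.67%) higher, against 3.31%. In the DNMT3A2 line 12 (5.02%) were lower, against 5.27% of all, and 15 (6.28%) higher, against 4.8%. The shares were near those of all tiles, except the smaller share of tiles higher in the DNMT3B1 line. At 1.5-fold 1 tile (0.418%) remained, chr8:117000001-118000000 in the DNMT3B1 line. It was also the only one among all tiles (0.0676%). At that fold 0.135% of all tiles were lower for the SETD2 knockout, 0.609% for DNMT3B1 and 0.473% for DNMT3A2.

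**Figure D1:**
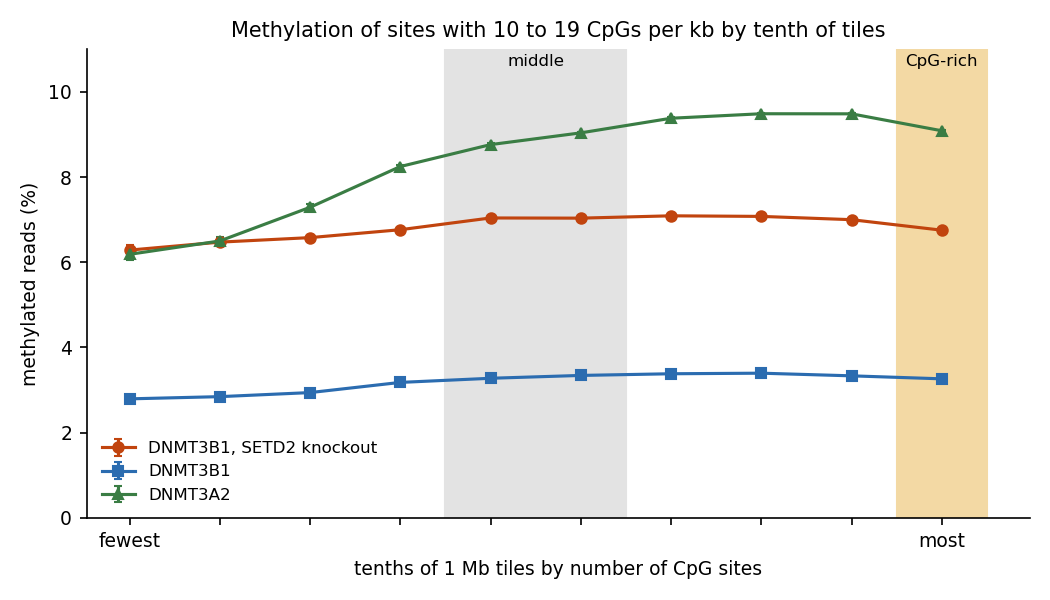
Methylated reads (%) at sites with 10 to 19 CpGs per kb in the 3 lines, for the deciles of 1 Mb tiles ordered from fewest to most CpG sites, with exact 95% binomial intervals that are mostly smaller than the points. The CpG-rich decile (shaded, right) lies at 6.75%, 3.26% and 9.09% in the SETD2 knockout, DNMT3B1 and DNMT3A2 lines, below the decile next to it in every line.

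Across the deciles the levels did not follow CpG content in a straight line. In the DNMT3A2 line they ran 6.19%, 6.50%, 7.29%, 8.25%, 8.76%, 9.04%, 9.38%, 9.49%, 9.48% and 9.09% over the deciles ordered by CpG content, fewest first. The CpG-rich decile thus lay below the 3 deciles next to it. In the SETD2 knockout line the level was 6.29% in the decile with fewest sites, reached 7.09% in the seventh and was 6.75% in the CpG-rich decile. In the DNMT3B1 line the corresponding levels were 2.79%, 3.38% and 3.26%, with the highest, 3.40%, in the eighth. In percentage points the plot of levels by decile shows the widest span in the DNMT3A2 line and the narrowest in the DNMT3B1 line. Relative to the level of each line, the span was narrowest in the SETD2 knockout line.

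The balance of the lines also differed between the 2 kinds of tile. The SETD2 knockout level was 0.743 of the DNMT3A2 level in CpG-rich tiles and 0.788 of it in the middle tiles, a relative log2 difference of -0.084. Over the deciles that ratio was 1.02 at the fewest sites and 0.738 in the decile next to the CpG-rich one. The DNMT3B1 level was 0.359 of the DNMT3A2 level in CpG-rich tiles and 0.371 in the middle tiles (log2 -0.049). That ratio was not particular to the CpG-rich tiles: it was 0.351, 0.358 and 0.361 in the 3 deciles next to them, nearest first. The SETD2 knockout level was 2.07 times the DNMT3B1 level in CpG-rich tiles and 2.12 times in the middle tiles (log2 -0.036). In the same 3 deciles it was 2.10, 2.08 and 2.10 times. The DNMT3B1 over DNMT3A2 difference turned to 0.037 with no coverage maximum, and that of SETD2 knockout over DNMT3B1 to 0.046 at equal gene content, while SETD2 knockout over DNMT3A2 kept its direction in all 12 alternatives run. Of 239 CpG-rich tiles, 47 lay above the median middle tile in SETD2 knockout over DNMT3A2, 79 in DNMT3B1 over DNMT3A2 and 81 in SETD2 knockout over DNMT3B1. At the same folds of 25% higher or 20% lower, the CpG-rich tiles held fewer extremes of these ratios than tiles overall. None was past it in SETD2 knockout over DNMT3A2, against 1.62% of all tiles higher and 0.947% lower. In DNMT3B1 over DNMT3A2, 2 (0.837%) were higher and 1 (0.418%) lower, against 3.18% and 3.11% of all tiles. In SETD2 knockout over DNMT3B1, 0 were higher and 2 (0.837%) lower, against 1.76% and 2.5%. At 1.5-fold none of the 3 ratios was past it in a CpG-rich tile, against 0.27% of all tiles higher in DNMT3B1 over DNMT3A2. A CpG-rich tile holds more usable sites, so its counting error is smaller: 0.135 percentage points for DNMT3A2, against 0.279 for a middle tile.

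Tile levels of the 3 lines went together more closely among CpG-rich tiles. Across 239 CpG-rich tiles Pearson's r was 0.906 between the SETD2 knockout and DNMT3A2 levels, 0.720 between DNMT3B1 and DNMT3A2, and 0.723 between the SETD2 knockout and DNMT3B1. Across 432 middle tiles the values were 0.581, 0.434 and 0.430. Tiles are not independent replicates, and the smaller counting error of CpG-rich tiles also bears on these values.

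**Figure D2:**
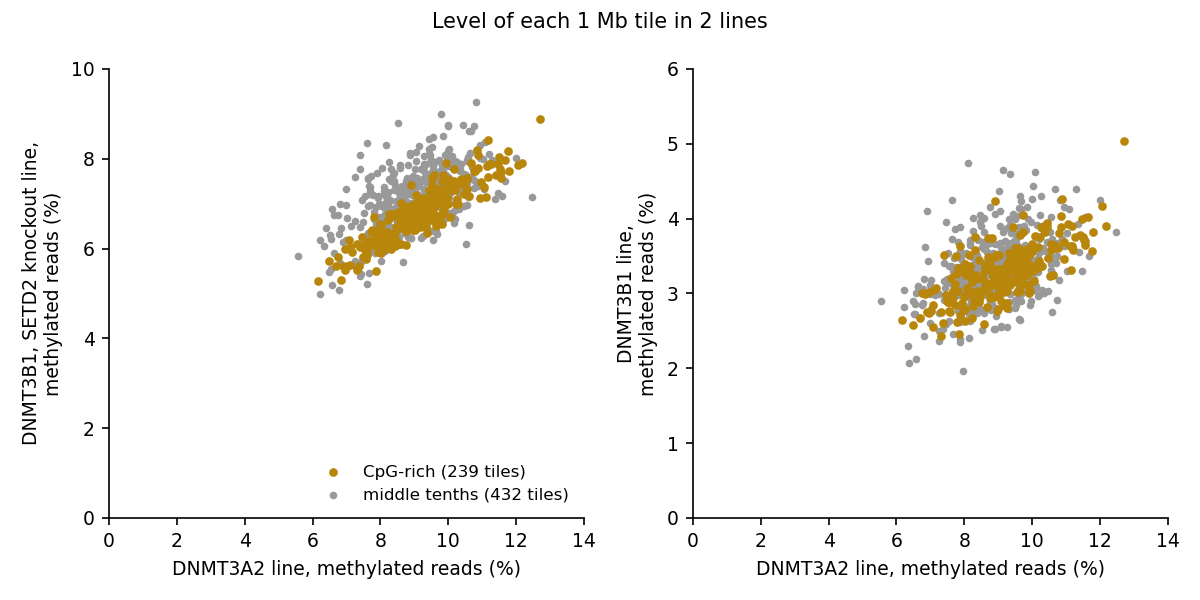
Each point is a 1 Mb tile, CpG-rich (239) or middle (432), with its level in the DNMT3A2 line on the x axis and its level in the SETD2 knockout line (left) or the DNMT3B1 line (right) on the y axis, all as methylated reads (%). CpG-rich tiles form a tight band within the cloud of middle tiles on the left (r 0.906 against 0.581), and a looser one on the right.

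The density classes were first compared without adjustment for surroundings. In the DNMT3B1 and DNMT3A2 lines, sites of every other density class differed more between the tiles than those with 10 to 19 CpGs per kb. In the SETD2 knockout line sites with 1 to 4 and with 5 to 9 differed less, at ratios of 1.04 and 0.996. At the sparsest sites, with 1 to 4 CpGs per kb, the DNMT3A2 level was 7.54% in CpG-rich tiles and 5.84% in the middle tiles, a ratio of 1.29. The same sites gave 3.26% and 2.92% in the DNMT3B1 line (1.12) and 7.05% and 6.79% in the SETD2 knockout line (1.04). The surroundings of such sites differ by construction, and with the number of sites within 5 kb on each side made equal the SETD2 knockout ratio was 0.949, the DNMT3B1 ratio 1.02 and the DNMT3A2 ratio 1.14. At 5 to 9 those ratios were 0.968, 1.00 and 1.04, against 0.979, 0.984 and 1.00 at 10 to 19. After this adjustment sites with 5 to 9 thus differed less than those with 10 to 19 for DNMT3B1, and more for the SETD2 knockout.

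Denser sites were also more methylated in CpG-rich tiles. Sites with 20 to 39 CpGs per kb had 5.11% in CpG-rich tiles and 4.76% in the middle tiles for the SETD2 knockout line, 2.57% and 2.20% for DNMT3B1, and 6.90% and 6.17% for DNMT3A2. At 40 to 59 CpGs per kb they were 1.31% and 0.946%, 0.516% and 0.315%, and 1.13% and 0.623%, ratios of 1.38, 1.64 and 1.81. Equal numbers of sites within 5 kb left these at 1.35, 1.66 and 1.76. They gave ratios of 1.18, 1.24 and 1.24 at 20 to 39 CpGs per kb, and of 1.08, 1.02 and 1.07 at 60 or more. At 60 or more, the cores of CpG islands, the levels were 0.483% and 0.431%, 0.158% and 0.143%, and 0.220% and 0.194%. The share of cytosines that failed to convert, which is part of every level, was not measured here. An alternative took the pooled level of usable autosomal sites of this density as background, at 0.463%, 0.153% and 0.210%. Differences between tiles at levels this low were not separated from failed conversion.

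The difference at 40 to 59 CpGs per kb was larger away from the densest stretches. Farther than 500 bp from any site with 60 or more CpGs per kb, levels were 1.62%, 0.690% and 1.53% in CpG-rich tiles, against 1.12%, 0.399% and 0.798% in the middle tiles, for the SETD2 knockout, DNMT3B1 and DNMT3A2 lines. Within 500 bp they were 0.980%, 0.315% and 0.663%, against 0.782%, 0.227% and 0.444%. CpG-rich tiles were higher in all 3 lines at both distances.

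**Figure D3:**
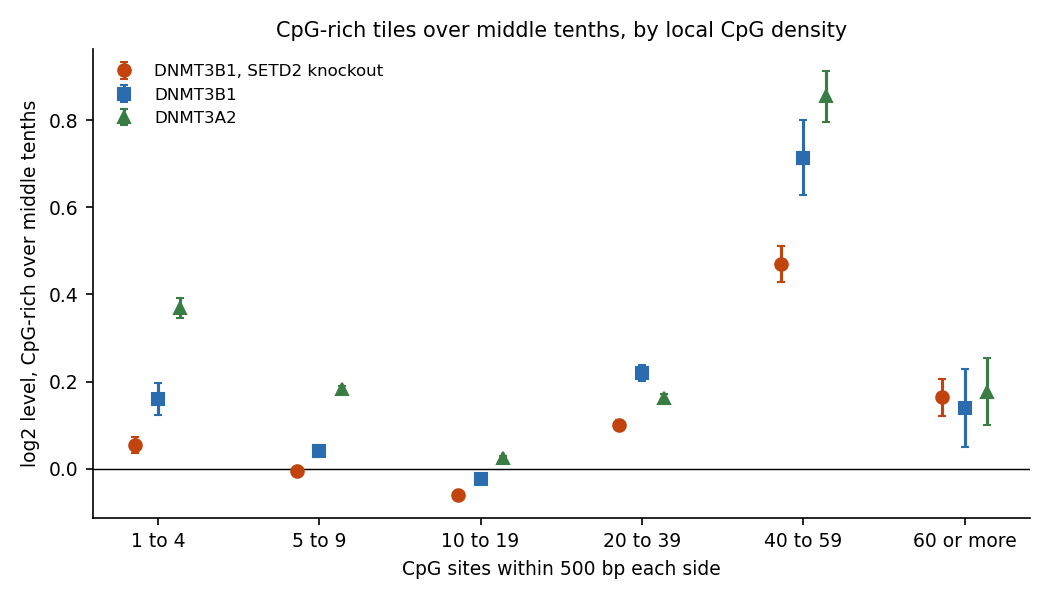
Log2 ratio of the level in CpG-rich tiles over that in the middle tiles (y axis) by the number of CpG sites within 500 bp on each side (x axis), for each line, with 95% counting intervals. The DNMT3A2 line lies highest at 1 to 4 CpGs (0.37), DNMT3B1 and DNMT3A2 are nearest 0 at 10 to 19 and the SETD2 knockout at 5 to 9, and all are highest at 40 to 59.

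Sites of each density made up different shares of the tiles. Sites with 10 to 19 CpGs per kb were 48.3% of sites in CpG-rich tiles and 36.0% in the middle tiles, while those with 60 or more were 8.17% and 3.79%. Usable sites in CpG-rich tiles also lay closer to dense CpGs. In CpG-rich tiles 8.37% lay under 2 kb from a site with 40 or more CpGs per kb and 17.7% lay at least 50 kb from one, against 3.97% and 43.2% in the middle tiles. At least 50 kb away, the levels were 7.55%, 3.56% and 10.5% in CpG-rich tiles, against 7.35%, 3.41% and 9.29% in the middle tiles, so all 3 lines were higher in CpG-rich tiles there. Between 10 and 50 kb, the class with most sites in CpG-rich tiles, they were 7.04%, 3.41% and 9.54%, against 7.07%, 3.37% and 9.09%. Between 2 and 10 kb they were 6.38%, 3.14% and 8.31%, against 6.62%, 3.15% and 8.17%, and under 2 kb they were 5.26%, 2.32% and 6.45%, against 5.14%, 2.29% and 6.01%. Within a distance class DNMT3A2 was thus higher in CpG-rich tiles in all 4 classes, DNMT3B1 in 3 and the SETD2 knockout in 2.

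Gene content separated the CpG-rich tiles among themselves. Genes were counted from promoter windows placed on the table. Only promoters with at least 6 CpGs could be placed, and chromosome 18 was not used for gene content. Of 27025 genes 14109 were placed, so a tile can hold genes that were not counted. By this count 236 CpG-rich tiles held 4064 genes, with a median of 16 and at most 53 per tile, against a median of 4 and at most 20 in 457 middle tiles. Across the 236 CpG-rich tiles Pearson's r between genes placed and the level was -0.677 for the SETD2 knockout, -0.393 for DNMT3B1 and -0.666 for DNMT3A2. Across 413 middle tiles it was -0.392, -0.126 and -0.306. Spearman's rho in the CpG-rich tiles was -0.711, -0.427 and -0.696. Other properties of the tiles went with the level as well. The share of sites with 60 or more CpGs per kb gave r of -0.598, -0.339 and -0.564 in CpG-rich tiles, mean coverage gave -0.401, -0.257 and -0.290, and the number of CpG sites itself gave -0.280, -0.235 and -0.240. Spearman's rho was -0.610, -0.329 and -0.569 for that share and -0.525, -0.333 and -0.479 for coverage. For the number of sites it was -0.231, -0.233 and -0.176.

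At equal gene content the CpG-rich tiles were the more methylated ones in nearly every class. With 0 to 4 genes, 8 CpG-rich tiles had 7.35%, 3.59% and 10.2% methylated reads in the SETD2 knockout, DNMT3B1 and DNMT3A2 lines, against 7.24%, 3.38% and 9.18% in 254 middle tiles. With 5 to 9 genes, 31 CpG-rich tiles had 7.33%, 3.46% and 10.2%, against 6.90%, 3.26% and 8.76% in 170 middle tiles. With 10 to 14 genes, 64 CpG-rich tiles had 7.14%, 3.41% and 9.71%, against 6.49%, 3.13% and 8.25% in 24 middle tiles. With 15 to 24 genes, 96 CpG-rich tiles had 6.59%, 3.16% and 8.80%, against 5.81%, 3.18% and 6.98% in 9 middle tiles, so that the DNMT3B1 line differed little there. The 37 CpG-rich tiles with 25 or more genes had 6.07%, 3.09% and 7.81% and had no middle tile to be set beside. CpG-rich tiles were thus mostly higher than middle tiles of like gene content, but held more genes, and levels were lower in tiles with more genes.

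Made equal over the gene classes found in both kinds of tile, the log2 ratio of CpG-rich over middle tiles was 0.11 for the SETD2 knockout, 0.065 for DNMT3B1 and 0.24 for DNMT3A2. Left out were chromosome 18 and the 37 CpG-rich tiles with 25 or more genes, the class with the lowest levels. The main comparison includes both, so the 2 comparisons do not cover the same tiles. The gene classes with few tiles carry much of this comparison, namely 8 CpG-rich tiles with 0 to 4 genes and 9 middle tiles with 15 to 24. The relation between genes and level was not limited to the neighbourhood of dense CpGs. At sites at least 10 kb from them, CpG-rich tiles with 0 to 4 genes had 7.67% in the SETD2 knockout line and 10.7% in the DNMT3A2 line, and those with 25 or more had 6.52% and 8.61%. The part of coverage, transcription and gene-body marks in this relation was not tested.

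**Figure D4:**
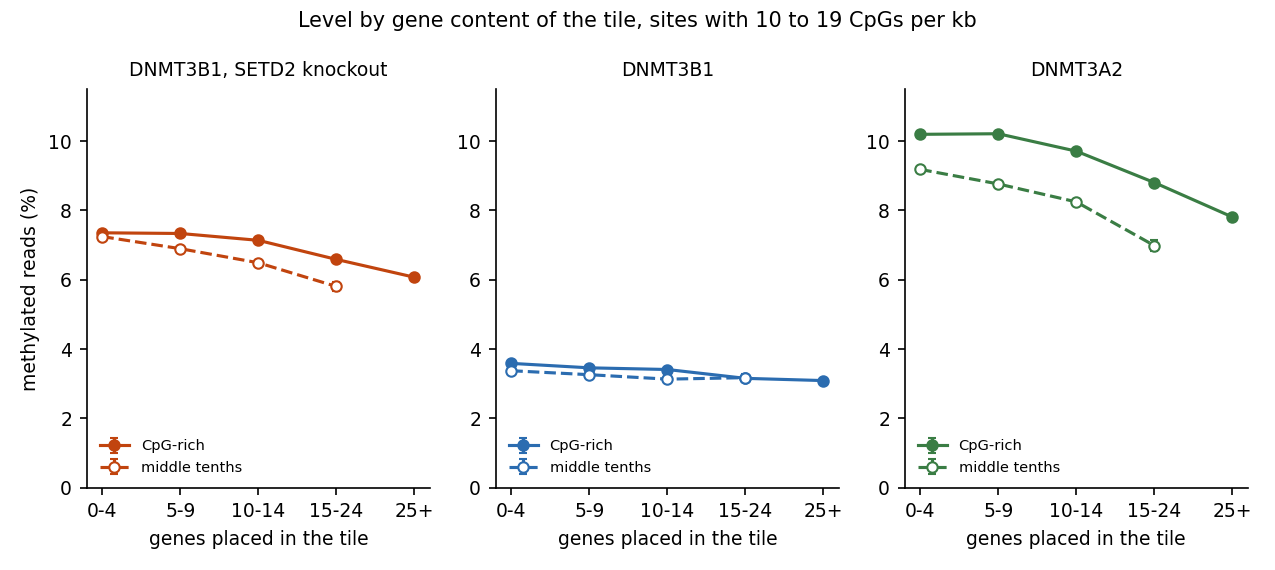
Methylated reads (%) at sites with 10 to 19 CpGs per kb by the number of genes placed in the tile, for CpG-rich (filled, solid) and middle (open, dashed) tiles in each line, with exact 95% binomial intervals. Levels are lower in the classes with most genes than in those with fewest, with small upturns between neighbouring classes for DNMT3A2 in CpG-rich tiles (10.19% and 10.21% at 0 to 4 and 5 to 9 genes) and for DNMT3B1 in middle tiles (3.13% and 3.18% at 10 to 14 and 15 to 24). The CpG-rich tiles lie above middle tiles of like gene number except in the DNMT3B1 line at 15 to 24 genes (3.16% against 3.18%).

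Around genes, the side of the start site mattered most in the DNMT3B1 line. Sites 2 to 20 kb downstream of the start of a protein-coding gene of at least 20 kb, and so within it, were compared with sites as far upstream. In CpG-rich tiles the downstream levels were 6.37%, 3.34% and 8.72% in the SETD2 knockout, DNMT3B1 and DNMT3A2 lines, and the upstream levels were 6.51%, 2.90% and 8.33%. The downstream over upstream ratio was thus 0.979, 1.15 and 1.05. In the middle tiles it was 1.02, 1.13 and 1.08. The difference of the DNMT3B1 line from the SETD2 knockout line was seen in both kinds of tile, and the knockout over DNMT3B1 ratio in CpG-rich tiles was 1.91 downstream and 2.24 upstream. Sites more than 20 kb from any placed start had 7.18%, 3.44% and 9.84% in CpG-rich tiles, against 7.20%, 3.37% and 9.14% in the middle tiles.

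The autosomes did not share one pattern of levels, while the balance of the SETD2 knockout and DNMT3A2 lines was close to uniform. CpG-rich tiles were unevenly placed: chromosomes 4 and 5 held 28 and 27 of them, chromosome 19 had the highest share (13 of its 57 tiles, 22.8%), and chromosome 14 had 1. In the 18 autosomes with at least 3 tiles of each kind, CpG-rich tiles were lower than middle tiles in 14 for the SETD2 knockout, in 9 for DNMT3B1 and in 4 for DNMT3A2. The mean log2 ratio over these autosomes was -0.044 ± 0.056, -0.0019 ± 0.096 and 0.049 ± 0.088 (SD, n = 18). The DNMT3B1 mean was small beside its spread. Relative to DNMT3A2, the SETD2 knockout level was lower in CpG-rich tiles of 17 of 18 autosomes, with a mean log2 of -0.094 ± 0.046 (SD, n = 18), the exception being chromosome 6 at 0.021.

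Chromosomes 7 and 16 lay at the ends of the range. On chromosome 7 the 14 CpG-rich tiles had 6.21%, 3.06% and 7.84% in the SETD2 knockout, DNMT3B1 and DNMT3A2 lines, against 7.03%, 3.45% and 8.84% in its middle tiles. On chromosome 16 the 4 CpG-rich tiles had 7.56%, 3.71% and 10.3%, against 7.20%, 3.24% and 9.13%. All 3 lines were thus lower in CpG-rich tiles on chromosome 7 and higher on chromosome 16.

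**Figure D5:**
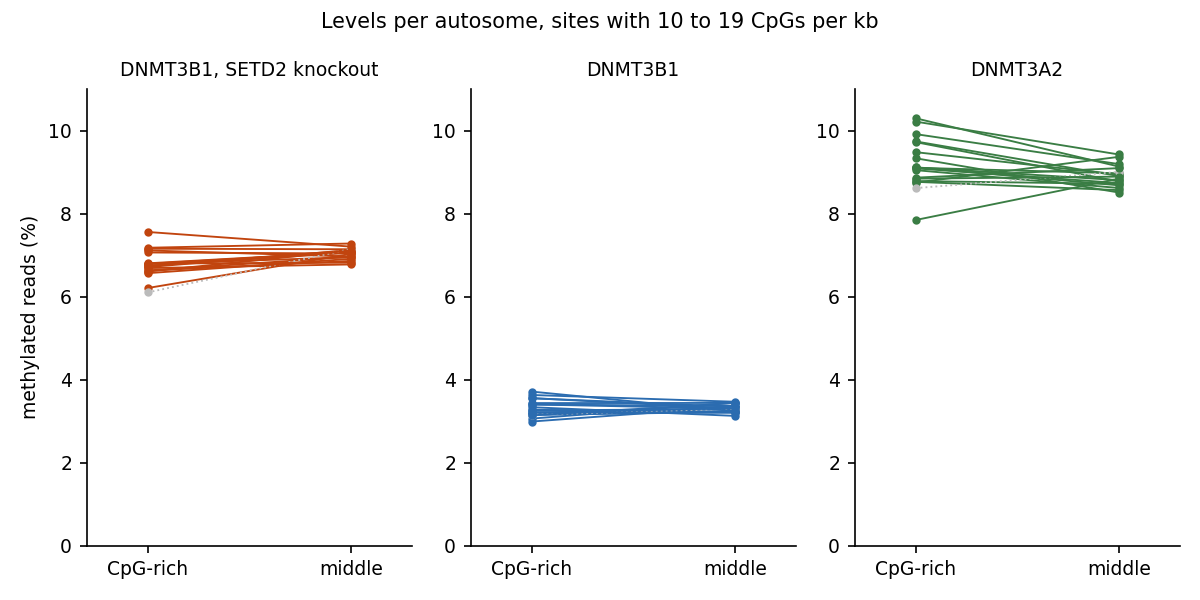
Methylated reads (%) at sites with 10 to 19 CpGs per kb in the CpG-rich tiles (left) and middle tiles (right) of each autosome, joined by a line, in each of the 3 lines. Chromosome 14, with 1 CpG-rich tile, is dotted grey. The lines slope up to the right in 14 of 18 autosomes for the SETD2 knockout and down in 14 of 18 for DNMT3A2, with 9 each way for DNMT3B1.

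CpG-rich tiles clustered toward the distal ends of chromosomes and next to each other. In the fifth of their chromosome's tiles farthest from the centromere lay 126 (52.7%), against 68 of 478 middle tiles (14.2%). They formed 106 runs, of which 56 were single tiles, and 29 runs of 3 or more held 141 tiles. Levels showed no order by run length: single tiles had 6.76%, 3.39% and 9.18%, the 42 tiles in runs of 2 had 6.61%, 3.23% and 8.68%, and runs of 3 or more had 6.79%, 3.23% and 9.17%, in the SETD2 knockout, DNMT3B1 and DNMT3A2 lines. The longest run, chr4:131000001-142000000, spanned 11 tiles and had 6.57%, 3.09% and 8.71%. No step in methylation was seen at the borders of the runs. In the last 250 kb inside, the levels were 6.82%, 3.34% and 9.12%, and in the first 250 kb outside 6.89%, 3.38% and 9.05%, while the number of CpG sites per kb was 12.9 inside and 11.3 outside.

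Within a tile the level varied more than between tiles. In 2359 windows of 100 kb the SD about the mean of their own tile was 0.970, 0.753 and 1.54 percentage points in the SETD2 knockout, DNMT3B1 and DNMT3A2 lines, with a counting error of 0.326, 0.282 and 0.447. The 5th to 95th percentiles ran between 4.97% and 8.77%, between 2.04% and 4.76%, and between 6.21% and 12.5%. The DNMT3B1 level was above the DNMT3A2 level in 1 of these windows (0.0424%), against 21 of 2964 windows (0.709%) in the middle tiles, which were less deeply covered.

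At single sites, methylation was spread thinly over many CpGs. No methylated read was seen at 57.1%, 80.5% and 53.0% of usable sites in CpG-rich tiles, against 59.6%, 82.0% and 57.1% in the middle tiles. Sites methylated in at least 50% of reads were 1.01%, 0.593% and 2.34% of sites, against 1.42%, 0.791% and 2.73%. Both kinds of share depend on depth, which was higher in CpG-rich tiles.

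Single tiles are described by the genes placed in them, picked after the values were seen. The most methylated CpG-rich tile in every line was chr8:117000001-118000000, with 8.89%, 5.04% and 12.7% in the SETD2 knockout, DNMT3B1 and DNMT3A2 lines. No gene start was placed there, but a gene that starts outside the tile and runs into it would not be counted. The next in the SETD2 knockout line were chr10:118000001-119000000 (8.42%), which holds Cand1, a regulator of cullin ubiquitin ligases, and chr16:92000001-93000000 (8.20%), which holds Runx1, a transcription factor of blood formation. The next in the DNMT3B1 line were chr8:111000001-112000000 (4.26%), with the transcription factor gene Zfhx3, and chr10:75000001-76000000 (4.24%). The next in the DNMT3A2 line were chr19:56000001-57000000 (12.2%), with the adrenergic receptor gene Adrb1, and chr17:86000001-87000000 (12.1%), with the developmental transcription factor genes Six2 and Six3. The tiles after the first held between 3 and 18 placed genes.

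Of the 3 least methylated tiles in each line, all but chr7:51000001-52000000, with 14 genes, held more placed genes than the median CpG-rich tile, 16. The tile chr15:102000001-103000000 had 5.27%, 2.65% and 6.17%, the lowest in the SETD2 knockout and DNMT3A2 lines. It held 24 placed genes, among them the transcription factor gene Sp1 and Rarg, a retinoic acid receptor. The neighbouring tiles chr10:79000001-80000000 and chr10:80000001-81000000 had the most CpG sites of all, 20479 and 19797, with 46 and 53 genes. They hold Stk11, a kinase upstream of AMPK, and Gpx4, which protects lipids from peroxidation, in the first, and Dot1l, the methyltransferase of lysine 79 of histone H3, and Lmnb2 in the second. Their levels were 5.61%, 2.77% and 7.02% in the first and 5.30%, 2.99% and 6.84% in the second. The third by sites, chr8:126000001-127000000, had 17969 sites but 17 genes and 7.33%, 3.82% and 9.73%.

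Other tiles low in a line held between 14 and 32 genes. The tile chr17:34000001-35000000, with 32 genes, among them H2-K1 and Tap1 of the major histocompatibility complex, which act in antigen presentation, had 5.73%, 2.58% and 6.48%. The tile chr8:73000001-74000000 had 6.69% in the DNMT3A2 line, with 27 genes. The tile chr7:30000001-31000000, with 24 genes, many of them zinc finger genes, had 5.49% in the SETD2 knockout line. In the DNMT3B1 line the lowest were chr4:133000001-134000000 at 2.43%, which holds Arid1a, a subunit of a chromatin remodelling complex, chr17:29000001-30000000 at 2.46%, which holds Cdkn1a, an inhibitor of cyclin-dependent kinases, and chr7:51000001-52000000 at 2.55%.

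The balance of the lines was most unlike the middle tiles in a few tiles. Relative to them, DNMT3B1 over DNMT3A2 was 1.28-fold in chr10:75000001-76000000, which holds the chromatin remodelling gene Smarcb1 and Prmt2, an arginine methyltransferase. It was also 1.28-fold in chr17:56000001-57000000, which holds Uhrf1, a partner of DNMT1 in maintenance methylation, and 1.24-fold in chr8:108000001-109000000, which holds Ctcf, a chromatin insulator protein. All 3 were low in SETD2 knockout over DNMT3B1, by a relative log2 of -0.46, -0.30 and -0.27. The DNMT3B1 line is in both ratios, so its own counting error moves them in opposite directions. The lowest DNMT3B1 over DNMT3A2 was 0.799-fold in chr2:169000001-170000000, which holds Zfp217, followed by 0.813-fold in chr17:45000001-46000000 and 0.815-fold in chr17:87000001-88000000.

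For SETD2 knockout over DNMT3B1, chr5:130000001-131000000 was second lowest at a relative log2 of -0.41, and chr5:112000001-113000000 was highest at 0.26, followed by chr17:45000001-46000000 and chr17:29000001-30000000, both at 0.24. For SETD2 knockout over DNMT3A2, the highest were chr17:34000001-35000000 at 0.17, chr7:134000001-135000000 at 0.15 and chr7:29000001-30000000 at 0.13, with 32, 39 and 32 genes. The lowest were chr1:91000001-92000000 at -0.29, which holds the homeobox gene Gbx2, chr19:56000001-57000000 at -0.28 and chr5:73000001-74000000 at -0.27, with 2, 11 and 9 genes.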

How the data were processed

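For the DNMT3B1 and DNMT3A2 lines 1 deposited table held total and methylated read counts of each CpG, per the file headers. The deposited knockout files gave coverage and methylated read counts, and a fraction of methylated reads equal to their ratio, per the file headers. Per the submitters' processing notes, positions are those of mm9. No aligner, caller or duplicate treatment is given in the sources used here. The 6 samples, 2 runs per line, were grouped by title. Autosomal CpG reads numbered 199677682 in the SETD2 knockout, 185976582 in DNMT3B1 and 197486729 in DNMT3A2.

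Each level sums methylated reads over sites and divides by the sum of reads, with a Clopper-Pearson 95% interval. Nothing was tested between lines. A tile was counted when 25% above or 20% below the pooled middle level, with at least 500 usable sites. Named tiles were the 3 highest and 3 lowest in each level and ratio, the 3 with most sites, and those at the border of the CpG-rich decile. The members and lists were chosen with earlier results of these data known.

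Promoter windows of 300 bases with at least 6 CpGs (RefSeq, GRCm38.p6) were placed on mm9 where their CpG spacing matched the table once: 16543 of 18541, of which 16541 fell on the RefSeq chromosome. Of the mirrored windows, 117 were placed. That gave 14109 of 27025 genes. No coordinate was converted. Tile counting was tested on simulated data. The alternatives varied coverage limits, background, tiling, site density, distance to dense CpGs, chromosomes, pooling and the comparison set. Scripts ran in Python 3.11.15 with scipy 1.17.1, matplotlib 3.10.9, pandas 2.3.3 and numpy 2.4.6.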

Additional observations from a re-analysis of the deposited data

Results flagged for a closer look

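The CpG-rich and middle tiles differed in opposite directions between lines. On the log2 scale the CpG-rich over middle level was -0.060 in the SETD2 knockout line and 0.025 in the DNMT3A2 line, and it was -0.024 in the DNMT3B1 line, again opposite to 0.025 in the DNMT3A2 line. With 1 library per line the difference between lines was not tested. Against all other tiles the DNMT3A2 value was -0.021, the same sign as in the other lines. With tiles of equal gene content all 3 values were above 0, at 0.11 for the SETD2 knockout, 0.065 for DNMT3B1 and 0.24 for DNMT3A2. Those values leave out chromosome 18 and the 37 CpG-rich tiles with 25 or more genes.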

How the results depend on the processing

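All values here are log2 ratios of CpG-rich over middle tiles, for the levels of the SETD2 knockout, DNMT3B1 and DNMT3A2 lines (-0.060, -0.024 and 0.025), then for DNMT3B1 over DNMT3A2, SETD2 knockout over DNMT3B1 and SETD2 knockout over DNMT3A2 (-0.049, -0.036 and -0.084). Values that moved by less than the counting interval are left out. With a minimum of 10 reads the knockout and DNMT3B1 levels were -0.050 and -0.012, DNMT3B1 over DNMT3A2 was -0.036 and knockout over DNMT3A2 was -0.074. With no coverage maximum the 6 values were -0.0019, 0.083, 0.046, 0.037, -0.084 and -0.048, so DNMT3B1 and DNMT3B1 over DNMT3A2 changed sign. In tiles shifted by 500 kb DNMT3A2 was 0.0094 and knockout over DNMT3A2 -0.073. In 500 kb tiles the levels were -0.072, -0.034 and 0.020, and knockout over DNMT3A2 was -0.091. At equal exact site density the knockout and DNMT3B1 levels were -0.041 and -0.0079, DNMT3B1 over DNMT3A2 was -0.032 and knockout over DNMT3A2 was -0.065. At least 2 kb from dense CpGs the levels were -0.045, -0.0036 and 0.044. Without chromosomes 6, 8 and 11 the knockout level was -0.065, DNMT3B1 over DNMT3A2 was -0.060 and knockout over DNMT3A2 was -0.093. Within autosomes the levels were -0.044, -0.0019 and 0.049, and knockout over DNMT3A2 was -0.094. By median tile the knockout and DNMT3A2 levels were -0.064 and 0.020, DNMT3B1 over DNMT3A2 was -0.058 and knockout over DNMT3A2 was -0.069. Against all other tiles the knockout level was -0.055, DNMT3A2 changed sign to -0.021, and the 3 line ratios were -0.0094, -0.025 and -0.034. At sites chosen without the knockout DNMT3A2 was 0.036 and DNMT3B1 over DNMT3A2 was -0.063. At equal gene content, added after the data were seen, the 6 values were 0.11, 0.065, 0.24, -0.17, 0.046 and -0.13, so the knockout and DNMT3B1 levels and their ratio changed sign. Chromosome 18 and the 37 CpG-rich tiles with 25 or more genes were left out there. Knockout over DNMT3A2 was below 0 under all 12 alternatives run. The cause of the changes was not tested, and no comparison was run that left out only the 9 sites of extreme coverage named above. At 1.5-fold 11 of 12 tile counts were 0.

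No paired analysis was possible because the runs of a line are pooled in 1 column or, for the knockout, identical, and no replicate was left out for the same reason. The differences between tile classes are a few percent. The main differences exceed the binomial counting intervals, which treat reads at neighbouring CpGs as independent and so can be too narrow. The lack of replicate libraries leaves the error between cultures unknown.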
